A study of Homo sapiens with 4 samples.

Results

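The 10 genes described here are 6 matrix metalloproteinases (MMP1, MMP2, MMP3, MMP9, MMP14 and MMP15) and the 4 tissue inhibitors of metalloproteinases (TIMP1, TIMP2, TIMP3 and TIMP4), chosen by name among the 61806 genes of a raw count table. They were measured by RNA sequencing in the human glioma cell line U251-MG, cultured in DMEM with fetal bovine serum. One set of cells carried a lentiviral COL8A1 overexpression vector (called COL8A1 cells, 2 libraries), and the other carried the same CMV-driven vector backbone as a negative control (called NC cells, 2 libraries). Both groups are labelled wild type, both were infected with lentivirus on a backbone with a puromycin gene, and the labels name no clone, no time after infection and no batch. Whether the replicates are separate cultures is not stated in the labels; the p-values rest on the spread of these 4 libraries alone, and that spread may be technical.

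Matrix metalloproteinases are zinc-dependent endopeptidases that cut collagens, laminins, proteoglycans and cell surface proteins, and most are made as inactive proenzymes whose propeptide must be removed. TIMPs bind the active site of these enzymes one to one, but TIMP2 has a second role: it links pro-MMP2 to MMP14 on the cell surface, where a free MMP14 molecule then removes the MMP2 propeptide. In glioblastoma, MMP2, MMP9 and MMP14 are the members studied most for invasion through brain tissue. The counts measure transcripts and not enzyme, its activation or its inhibition.

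The total count was 31605164 and 27923796 in COL8A1 replicates 1 and 2 and 30895414 and 33576228 in NC replicates 1 and 2. Levels are given as CPM, the usual depth-scaled count, with library sizes adjusted by TMM factors between 0.993 and 1.007. COL8A1 itself stood at 135 and 81.3 CPM in the COL8A1 libraries and at 2.51 and 2.43 CPM in the NC libraries, in the direction of the labels (log2 fold change 5.45, SE 0.315, edgeR adjusted p = 0.0681). Of 17030 genes tested with edgeR's quasi-likelihood F-test, 2 passed an adjusted p of 0.05, which is 0.0117% of the genes tested, and no member was among them. Without COL8A1 replicate 1 the test called 0 genes, without NC replicate 1 it called 1, without NC replicate 2 it called 3 genes, 2 higher and 1 lower, and without COL8A1 replicate 2 also 3, 1 higher and 2 lower. VIM, NES, CD44 and SOX9 of the astroglial and glioma markers were at 154 CPM or above in all libraries. GFAP, the defining astrocyte filament, was at 2.05 and 1.84 CPM in COL8A1 and 0.685 and 0.564 CPM in NC libraries (edgeR adjusted p = 0.580). Its part in the members' values was not tested. S100B, also an astroglial marker, was low too, at 2.58 and 2.02 CPM in COL8A1 and 2.185 and 1.365 CPM in NC libraries, which overlap. Markers of microglia and macrophages, which supply much of the MMP9 of brain tumors, summed to 0.598 and 0.900 CPM in COL8A1 and 0.783 and 0.623 CPM in NC libraries, with AIF1 and C1QA at 0 in all 4. Neutrophil markers summed to 0.0629 and 0.180 CPM in COL8A1 and 0.0652 and 0.445 CPM in NC libraries, with MPO and FCGR3B at 0 in all 4. Markers of fibroblasts and pericytes summed to 9.69 and 10.8 CPM in COL8A1 and 10.5 and 11.1 CPM in NC libraries. Endothelial markers summed to 85.9 and 67.9 CPM in COL8A1 and 71.9 and 71.6 CPM in NC libraries, mostly CDH5, while PECAM1 was at 0.475 CPM or below. Neuronal markers summed to 54.9 and 56.8 CPM in COL8A1 and 58.3 and 64.9 CPM in NC libraries, mostly SYT1 and STMN2, with SYN1 at 0.

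The shared chemistry of the 6 proteases is written in the 33 bases that encode their catalytic zinc site, shown here because they identify the family and because close copies could have split reads. The capitals mark the 3 codons of the histidines that hold the zinc, and the stretches were read from the GENCODE release 29 transcripts:
MMP1 (chromosome 11, coding bases 652 to 684): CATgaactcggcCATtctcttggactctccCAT
MMP3 (chromosome 11, coding bases 652 to 684): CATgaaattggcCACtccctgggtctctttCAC
MMP2 (chromosome 16, coding bases 1207 to 1239): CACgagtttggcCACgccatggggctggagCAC
MMP9 (chromosome 20, coding bases 1201 to 1233): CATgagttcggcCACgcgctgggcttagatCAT
MMP14 (chromosome 14, coding bases 715 to 747): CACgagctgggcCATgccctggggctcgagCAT
MMP15 (chromosome 16, coding bases 775 to 807): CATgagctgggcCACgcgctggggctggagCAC
Between 18 and 28 of the 33 bases were identical in a pair of these genes. The membrane-anchored MMP14 and MMP15 shared 28, as did MMP2 and MMP15, and MMP1 and MMP2 shared 18. Over whole annotated coding transcripts, the longest identical run in any of the 15 protease pairs was 23 bases, between MMP2 and MMP9, and in any of the 6 TIMP pairs it was 21 bases, between TIMP2 and TIMP4.

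MMP2, the 72-kDa type gelatinase that cuts denatured collagen and collagen IV, was the most abundant protease of the set and stood higher in both COL8A1 libraries. Its position is chromosome 16, 55389700 to 55506691, plus strand (hg38, from GENCODE release 29 as for all gene positions here). It had 443 and 341 CPM in COL8A1 replicates 1 and 2, from 14085 and 9469 counts, against 254 and 245.5 CPM in NC replicates 1 and 2, from 7778 and 8274 counts. The groups did not overlap, and the COL8A1 libraries lay farther from each other than the NC libraries did. The means were 392.1 ± 72.3 CPM in COL8A1 and 249.6 ± 5.77 CPM in NC cells (SD, n = 2 each), a 1.57-fold difference. The log2 fold change was 0.65 (SE 0.137, 95% interval 0.29 to 1.012). The edgeR p was 0.00609 unadjusted and 0.580 adjusted over all genes tested. The difference therefore missed the edgeR threshold, while DESeq2 gave an adjusted p of 0.0138. In such bulk libraries a change in RNA per cell and a change in the share of cells that express a gene cannot be told apart. With 1 library left out at a time, the log2 fold change ran from 0.45, without COL8A1 replicate 1, to 0.82, without COL8A1 replicate 2.

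MMP14, the membrane type protease that activates pro-MMP2, did not part the groups (chromosome 14, 22836557 to 22849027, plus strand). It had 44.1 and 32.6 CPM in COL8A1 and 30.3 and 33.9 CPM in NC libraries, and NC replicate 2 lay above COL8A1 replicate 2. The log2 fold change was 0.26 (SE 0.177, 95% interval −0.21 to 0.72, edgeR adjusted p = 0.852), and it was 0.02 without COL8A1 replicate 1 and 0.45 without COL8A1 replicate 2. MMP15, the second membrane type enzyme (chromosome 16, 58025566 to 58046901, plus strand), had 16.5 and 14.2 CPM in COL8A1 and 12.8 and 12.02 CPM in NC libraries. Its groups did not overlap, and the log2 fold change was 0.31 (SE 0.142, 95% interval −0.07 to 0.68, edgeR adjusted p = 0.835), and 0.19 without COL8A1 replicate 1.

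The collagenase MMP1 and the stromelysin MMP3 lie in the protease cluster on chromosome 11. MMP1 was low but well above the floor of 3 counts, while MMP3 and the second gelatinase, MMP9, had 0 to 11 counts. MMP1 (102789920 to 102798160, minus strand), which opens the triple helix of fibrillar collagens, had 40 and 41 counts in COL8A1 and 46 and 48 counts in NC libraries, or 1.26 and 1.48 CPM in COL8A1 and 1.5 and 1.42 CPM in NC libraries. These values overlapped, and the 95% interval of the log2 fold change was wide, from −0.93 to 0.73. MMP3 (102835801 to 102843803, minus strand), a protease of proteoglycans and an activator of other proenzymes, had 4 and 3 counts in COL8A1 and 2 and 11 counts in NC libraries. MMP9 (chromosome 20, 46008908 to 46016561, plus strand) had 0 counts in both COL8A1 libraries, against 5 and 0 counts in NC replicates 1 and 2. A count of 0 allows up to 0.0944 and 0.108 CPM in COL8A1 replicates 1 and 2 and 0.0890 CPM in NC replicate 2 (3 counts per library, counting error only). Neither MMP3 nor MMP9 passed the filter on low counts, so 8 of the 10 members were tested.

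**Figure D1:**
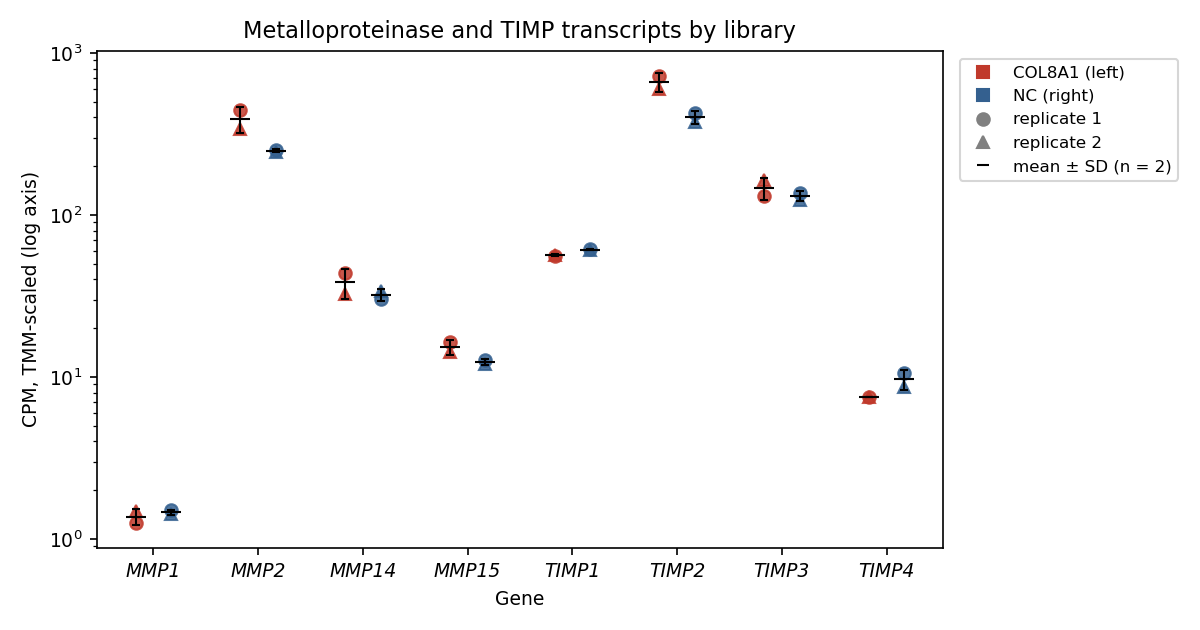
CPM of the 8 tested members (log axis) in the 2 COL8A1 libraries (left, red) and the 2 NC libraries (right, blue), with circles for replicate 1, triangles for replicate 2 and black bars for mean ± SD (n = 2). TIMP2 and MMP2 lie highest and stand apart between the groups, with TIMP2 at 724 and 603 CPM in COL8A1 and 429 and 376 CPM in NC libraries. The groups also do not overlap, at smaller log2 fold changes, in MMP15 (COL8A1 above NC) and in TIMP1 and TIMP4 (COL8A1 below NC). Of all genes tested, 37.5% had groups that did not overlap.

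TIMP2, the inhibitor that also serves as the adaptor for pro-MMP2, was the most abundant TIMP and had the smallest edgeR p of the members. Its position is chromosome 17, 78852977 to 78925387, minus strand. It had 724 and 603 CPM in COL8A1 replicates 1 and 2, from 23017 and 16759 counts, against 429 and 376 CPM in NC replicates 1 and 2, from 13156 and 12669 counts. Both COL8A1 libraries lay above both NC libraries. The means were 664 ± 85.4 CPM in COL8A1 and 402.5 ± 37.6 CPM in NC cells (SD, n = 2 each), a 1.65-fold difference. The log2 fold change was 0.72 (SE 0.118, 95% interval 0.41 to 1.03). The edgeR p was 0.00221 unadjusted and 0.457 adjusted. It thus missed the edgeR threshold, and DESeq2 gave an adjusted p of 0.000501. With 1 library left out at a time the log2 fold change ran from 0.58, without COL8A1 replicate 1, to 0.84, without COL8A1 replicate 2. An antisense gene that shares 367 exon bases with TIMP2 (AC022966.1) had 189 and 181 counts in COL8A1 and 137 and 135 counts in NC libraries. Adding them left the TIMP2 log2 fold change at 0.72. They were few beside the TIMP2 counts, so the sum could hardly move this value and cannot show how reads in the shared bases were counted.

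The other inhibitors had log2 fold changes between −0.35 and 0.17. TIMP1, a secreted inhibitor that also binds pro-MMP9 (chromosome X, 47582313 to 47586789, plus strand), had 56.1 and 56.9 CPM in COL8A1 and 61.7 and 60.7 CPM in NC libraries. The groups did not overlap, but the distance was small (log2 fold change −0.11, SE 0.081, 95% interval −0.33 to 0.10, edgeR adjusted p = 0.852). TIMP4, the least abundant TIMP (chromosome 3, 12153051 to 12159351, minus strand), had 7.55 and 7.56 CPM in COL8A1 and 10.6 and 8.69 CPM in NC libraries. Its log2 fold change was −0.35 (SE 0.177, 95% interval −0.82 to 0.11, edgeR adjusted p = 0.835), and −0.20 without NC replicate 1. TIMP3, which binds to the matrix and also blocks ADAM17 and several ADAMTS enzymes (chromosome 22, 32801701 to 32863043, plus strand), had 131 and 163 CPM in COL8A1 and 137 and 124 CPM in NC libraries. Its groups overlapped (log2 fold change 0.17, SE 0.131, 95% interval −0.18 to 0.51), and the value was −0.004 without COL8A1 replicate 2.

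TIMP1, TIMP3 and TIMP4 lie within the synapsin genes SYN1, SYN3 and SYN2, on the opposite strand, and the strand setting of the counting is not given in the sources used here. SYN1 had 0 counts in all 4 libraries. SYN2, which shares 170 exon bases with TIMP4, had 10 and 7 counts in COL8A1 and 11 and 6 counts in NC libraries. SYN3 had 26 and 7 counts in COL8A1 and 17 and 21 counts in NC libraries, so the synapsin counts were small beside those of the inhibitors, of which the lowest was 210, for TIMP4.

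Upstream sequence was found for 5 of the 10 members (MMP14, MMP15, TIMP1, TIMP3 and TIMP4) in the RefSeq promoter table (GRCh38.p14). It was searched on both strands, in the 250 bases before the start, for 4 motifs. These were the AP-1 consensus TGANTCA, the AP-1-like site TGAGTAA, which reads TTACTCA on the other strand, the GC box GGGCGG, which there reads CCGCCC, and the TATA box TATAAA, which there reads TTTATA. AP-1 is the JUN and FOS dimer to which many protease and TIMP1 promoters respond. TIMP1 and TIMP3 are shown because their upstream stretches differ in these letters, TIMP1 with the AP-1-like site and 2 GC boxes and TIMP3 with 5 GC boxes. Both GC boxes of TIMP1 lie outside the 30 bases printed. Capitals mark the matches, which do not overlap one another:
TIMP1 (chrX:47582324-47582353, plus strand, 30 bases around the match 101 bases before the RefSeq start, and within the GENCODE gene): tggtgggtggaTGAGTAAtgcatccaggaa
TIMP3 (chr22:32801455-32801704, plus strand): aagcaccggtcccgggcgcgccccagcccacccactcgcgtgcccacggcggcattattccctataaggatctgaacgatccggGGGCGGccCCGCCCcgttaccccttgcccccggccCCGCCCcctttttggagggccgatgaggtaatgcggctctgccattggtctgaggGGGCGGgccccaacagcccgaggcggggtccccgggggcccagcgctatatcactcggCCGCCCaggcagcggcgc
The TIMP3 window held 5 GC boxes and TIMP1's 2, and MMP15 had 5, MMP14 had 1 and TIMP4 had 1. TIMP1 alone of the 5 held TGAGTAA, and none of the 5 held TGANTCA or TATAAA. Among 35116 promoters of the same length, 42.6% held the GC box, 2.21% held TGAGTAA, 6.57% held TGANTCA and 10.7% held TATAAA.

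Of the 8 tested members, 5 had groups that did not overlap, 3 of them above NC (MMP2, MMP15 and TIMP2) and 2 below (TIMP1 and TIMP4). Over all genes tested 37.5% had groups that did not overlap, 18.9% with COL8A1 above NC and 18.6% below. At an unadjusted edgeR p under 0.05, 2 members (MMP2 and TIMP2) were higher and 0 lower, against 3.44% of all genes tested that were higher and 2.63% that were lower, 6.07% in all. In DESeq2, with adjusted p under 0.05, the same 2 were higher, against 0.605% of all genes. The median log2 fold change was 0.28 for the 4 tested proteases and 0.03 for the 4 TIMPs, against 0.001 over all genes tested.

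**Figure D2:**
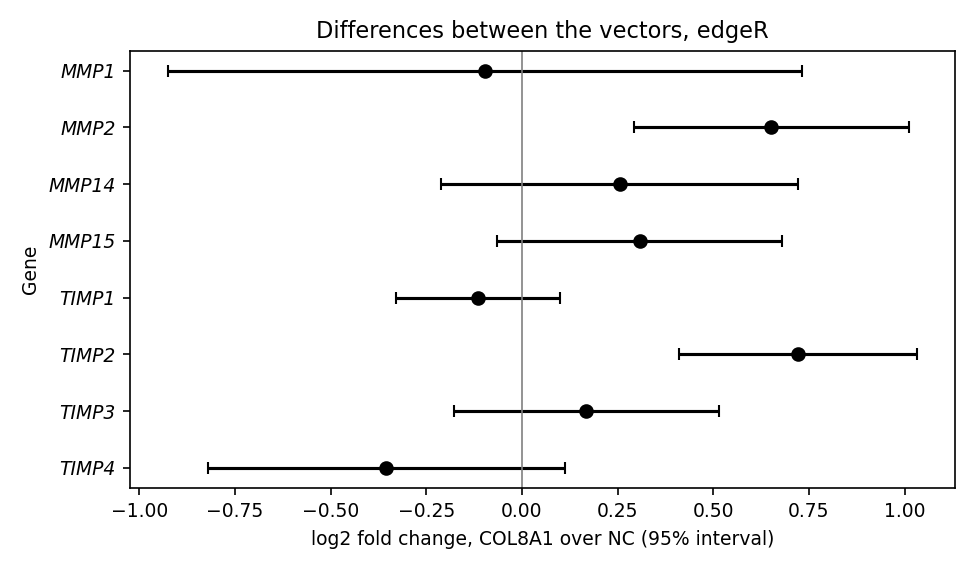
Log2 fold changes of COL8A1 over NC cells with 95% intervals from the edgeR fit (2 libraries a group), 1 gene a line; the vertical line marks no difference. The intervals of MMP2 (0.29 to 1.012) and TIMP2 (0.41 to 1.03) lie above 0 and those of the other 6 tested members include 0; the intervals are not adjusted for the number of genes.

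To compare levels between genes, CPM were divided by exon length in kb (RPKM). TIMP2 came first, with 66.7 to 129 RPKM over the 4 libraries, and MMP2 second, with 49.8 to 89.8 RPKM. These ranges overlap, because the COL8A1 libraries are high in both, but TIMP2 exceeded MMP2 within each library. TIMP1 followed with 36.4 to 40.1 RPKM, and TIMP3 with 27.0 to 35.5 RPKM. MMP14 was at 6.79 to 9.88 RPKM, TIMP4 at 4.58 to 6.44 RPKM and MMP15 at 2.72 to 3.73 RPKM. MMP1, at 0.639 to 0.762 RPKM, lay above MMP3 and MMP9, at 0.0319 to 0.159 RPKM and 0 to 0.0698 RPKM, whose ranges overlap. From MMP2 down to MMP3, each of these ranges lay above the next one.

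The balance of proteases to inhibitors was taken as the log2 ratio of their summed levels in each library. The 6 proteases summed to 505 and 389 CPM in COL8A1 and 298 and 293 CPM in NC libraries, and the 4 TIMPs to 919 and 831 CPM in COL8A1 and 639 and 570 CPM in NC libraries. Both sums were thus higher in the COL8A1 libraries, 1.51-fold and 1.45-fold on the means. Their log2 ratio was −0.86 and −1.09 in COL8A1 and −1.10 and −0.96 in NC libraries, so that the groups overlapped. The difference of the means was 0.05, against an SD between replicates of 0.135, and it was not tested; an exact permutation test of 2 libraries against 2 gives no two-sided p below 0.33. Leaving out 1 library moved it between −0.07, without COL8A1 replicate 1, and 0.17, without COL8A1 replicate 2, and without NC replicate 1 it was −0.02. On summed RPKM the log2 ratio was −0.93 and −1.20 in COL8A1 and −1.30 and −1.18 in NC libraries, again overlapping.

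MMP2 and TIMP2 dominated these sums. MMP2 made 87.7% and 87.6% of the protease CPM in COL8A1 and 84.99% and 83.7% in NC libraries, and TIMP2 made 78.8% and 72.6% of the TIMP CPM in COL8A1 and 67.2% and 66.0% in NC libraries. Without MMP2 the COL8A1 minus NC difference of the log2 balance was −0.29, and without TIMP2 it was 0.52. The near-zero balance therefore rested on these 2 genes being high together.

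Ratios of single pairs are given per length. MMP2 to TIMP2 was 0.699 and 0.645 in COL8A1 and 0.675 and 0.746 in NC libraries, which overlap. MMP14 to TIMP2, the receptor of the activation complex against its adaptor, was 0.0769 and 0.0682 in COL8A1 and 0.0892 and 0.114 in NC libraries. Both COL8A1 libraries lay below both NC libraries, and the group means of the log2 ratio differed by 0.48. The nearest libraries, both replicate 1, had log2 ratios of −3.70 in COL8A1 and −3.49 in NC. MMP14 to TIMP3 was 0.348 and 0.206 in COL8A1 and 0.228 and 0.282 in NC libraries, and MMP1 to TIMP1 was 0.0176 and 0.0203 in COL8A1 and 0.0190 and 0.0184 in NC libraries, both overlapping. Of 3 further pairs, chosen after their values were seen, TIMP2 to TIMP1 was 3.53 and 2.90 in COL8A1 and 1.90 and 1.695 in NC libraries. MMP2 to TIMP3 was 3.16 and 1.95 in COL8A1 and 1.72 and 1.84 in NC libraries, and MMP2 to MMP14 was 9.09 and 9.46 in COL8A1 and 7.57 and 6.54 in NC libraries. In all 3 both COL8A1 libraries lay above both NC libraries. MMP2 or TIMP2 is part of each of these 3 and of MMP14 to TIMP2, and both genes alone had groups that did not overlap. Of the single genes tested, 37.5% had groups that did not overlap, and ratios of other gene pairs were not counted. Pairs of TIMP1 with MMP3 or MMP9 gave no usable ratio, since these proteases had at most 11 counts in a library.

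**Figure D3:**
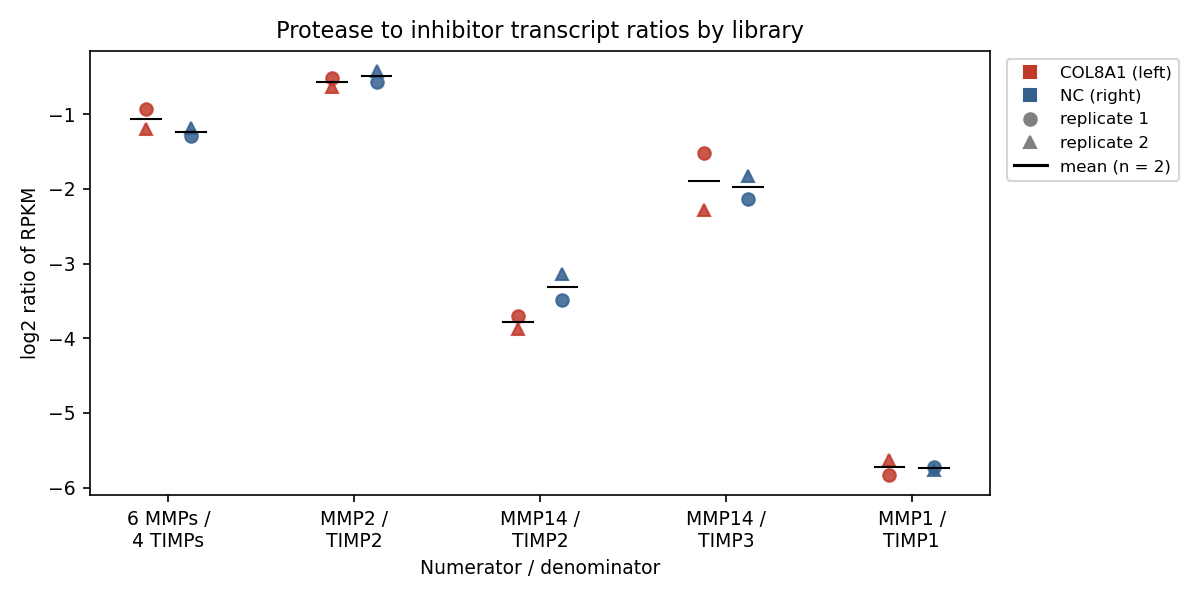
Log2 ratio of RPKM for the summed proteases over the summed TIMPs and for 4 single pairs, in COL8A1 libraries (left, red) and NC libraries (right, blue), with circles for replicate 1, triangles for replicate 2 and bars for means (n = 2). Among these 5 ratios the groups part in MMP14 to TIMP2, where the log2 ratio is −3.70 and −3.87 in COL8A1 and −3.49 and −3.13 in NC libraries.

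The genes whose pattern over the 4 libraries was most like that of TIMP2 were found by the root mean square distance between log2 CPM centred over the libraries, among 11276 other genes with a mean of at least 5 CPM. The nearest were a gene listed by its identifier alone (ENSG00000280660, distance 0.0375), the transcription factor gene TEF (0.0410) and VMAC (0.0586). TEF had 15.5 and 12.7 CPM in COL8A1 and 9.56 and 7.74 CPM in NC libraries. MMP2 ranked 7 in this order (distance 0.0763), while MMP15 ranked 242, MMP14 820, TIMP3 2890, TIMP1 7630 and TIMP4 10196. With 4 libraries such a distance describes 2 levels and a few deviations, and many genes can come close by it.

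The wider network of pericellular proteolysis was described with 7 lists of 106 genes in all, of which 78 were tested. In edgeR 0 passed the adjusted threshold and in DESeq2 0 did. At an unadjusted edgeR p under 0.05, 3 were higher and 5 lower, against 3.44% and 2.63% of all genes tested. By direction alone 45 of the 78 were higher and 33 lower, and over all genes tested 8555 were higher and 8475 lower. The median log2 fold change over the 78 was 0.04. The count of higher genes was 1 without NC replicate 1 and 5 without NC replicate 2, without COL8A1 replicate 1 or without COL8A1 replicate 2. For lower genes the count was 3 without NC replicate 2 and 9 without COL8A1 replicate 2.

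Among the 17 other metalloproteinases 7 were tested, 3 higher and 4 lower, and 6 had 0 counts in all 4 libraries. MMP7, matrilysin, a small secreted protease that lacks the hemopexin domain of most family members, had the smallest p. It stood at 4.66 and 4.50 CPM in COL8A1 and at 9.07 and 7.92 CPM in NC libraries, with a log2 fold change of −0.89 (SE 0.182, 95% interval −1.37 to −0.41). Its edgeR adjusted p was 0.572 and its DESeq2 adjusted p 0.0517. The membrane type enzyme MMP16 had 49.7 and 54.9 CPM in COL8A1 and 51.2 and 49.0 CPM in NC libraries, which overlap. MMP28 stood at 11.6 and 9.40 CPM in COL8A1 and 7.57 and 9.88 CPM in NC libraries, MMP17 between 3.98 and 5.12 CPM in all 4 libraries, and MMP24 and MMP19 below 2 CPM. MMP10, a second stromelysin, had 12 and 10 counts in COL8A1 and 12 and 40 counts in NC libraries.

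Of 9 genes for other inhibitors and modulators, 8 were tested, 3 higher and 5 lower. RECK, a membrane-anchored inhibitor of MMP2, MMP9 and MMP14, had 18.5 and 17.1 CPM in COL8A1 and 16.6 and 17.03 CPM in NC libraries (log2 fold change 0.08, SE 0.117, edgeR adjusted p = 0.923). PCOLCE2, which enhances procollagen processing, was at 0.724 and 0.684 CPM in COL8A1 and 1.44 and 1.51 CPM in NC libraries (edgeR adjusted p = 0.780). PZP and SPOCK2 were below 2.1 CPM and overlapped between groups, and TFPI2, a serine protease inhibitor, had 17 and 4 counts in COL8A1 and 2 and 4 counts in NC libraries and was not tested.

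The plasminogen system activates several pro-MMPs through plasmin, and furin-type convertases activate MMP14 and MMP15 inside the cell. Of 15 genes 12 were tested, 6 higher and 6 lower. PLAT, tissue plasminogen activator, was at 17.1 and 22.3 CPM in COL8A1 and 27.2 and 30.1 CPM in NC libraries, the smallest p of this list (log2 fold change −0.54, SE 0.167, edgeR adjusted p = 0.745). Urokinase PLAU was at 94.7 and 122 CPM in COL8A1 and 116 and 107 CPM in NC libraries, and its receptor PLAUR at 26.9 and 38.8 CPM in COL8A1 and 32.3 and 23.5 CPM in NC libraries. The groups overlapped in both, as they did for the serine protease inhibitor gene SERPINE2 (139 and 165 CPM in COL8A1, 165 and 165 CPM in NC) and for FURIN (140 and 169 CPM in COL8A1, 159 and 148 CPM in NC).

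The ADAM sheddases are cell surface relatives, and TIMP3 inhibits several of them. Of 11 genes 9 were tested, 8 higher and 1 lower, against 8555 higher and 8475 lower of all genes tested. Their median log2 fold change was 0.05. ADAM10 was at 167 and 165 CPM in COL8A1 and 170 and 167 CPM in NC libraries, and ADAM17 at 83.4 and 80.5 CPM in COL8A1 and 85.1 and 77.7 CPM in NC libraries. Their log2 fold changes were −0.02 (95% interval −0.18 to 0.14) and 0.01 (−0.21 to 0.24). ADAM19 was at 123 and 132 CPM in COL8A1 and 108 and 48.2 CPM in NC libraries, so that NC replicate 2 alone was low (edgeR adjusted p = 0.835). ADAM28 was at 7.71 and 7.06 CPM in COL8A1 and 6.52 and 6.29 CPM in NC libraries, and ADAM15 overlapped between groups.

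Of 19 ADAMTS genes, secreted proteases of proteoglycans and procollagens, 8 were tested, 3 higher and 5 lower. ADAMTS4, an aggrecanase, was at 47.8 and 48.5 CPM in COL8A1 and 52.6 and 50.9 CPM in NC libraries (log2 fold change −0.10, SE 0.086, edgeR adjusted p = 0.869). ADAMTS6 was at 1.45 and 2.49 CPM in COL8A1 and 3.03 and 3.09 CPM in NC libraries. ADAMTS7 and ADAMTS1 were below 1 CPM, and ADAMTS5 had counts in NC replicate 2 only, 3 in number.

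Transcription factors that bind metalloproteinase promoters were all tested, 11 higher and 7 lower of 18. FOS was at 4.03 and 4.14 CPM in COL8A1 and 4.04 and 4.63 CPM in NC libraries, FOSL1 at 27.1 and 33.1 CPM in COL8A1 and 30.7 and 26.6 CPM in NC libraries, and JUNB at 38.4 and 30.2 CPM in COL8A1 and 32.1 and 34.4 CPM in NC libraries. All overlapped between the groups. JUN was low in COL8A1 replicate 2 alone, with 147 and 9.76 CPM in COL8A1 and 135 and 136 CPM in NC libraries. JUND, named after its values were seen, was low in NC replicate 1 alone, with 67.1 and 58.7 CPM in COL8A1 and 4.96 and 68.1 CPM in NC libraries. ATF3 had the smallest p, at 4.59 and 7.53 CPM in COL8A1 and 12.2 and 13.5 CPM in NC libraries (log2 fold change −1.08, SE 0.277, edgeR adjusted p = 0.662). The ETS family genes ETS1, ETS2 and ETV4 had log2 fold changes of −0.05, −0.25 and 0.24 (edgeR adjusted p of 0.960, 0.835 and 0.835).

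Of 17 docking, uptake and inducing molecules 16 were tested, 11 higher and 5 lower. Their median log2 fold change was 0.15, and 9 lay above NC without overlap and 1 below, against 18.9% above and 18.6% below of all genes tested. BSG, also called EMMPRIN, which induces metalloproteinases in neighbouring cells, was at 636 and 620 CPM in COL8A1 and 591 and 877 CPM in NC libraries. CD44, which docks MMP9 and MMP14, was at 483 and 483 CPM in COL8A1 and 396 and 486 CPM in NC libraries, and LRP1, which takes up MMP2 and TIMP complexes, was at 364 and 291 CPM in COL8A1 and 288 and 298 CPM in NC libraries. These overlapped between the groups. Claudin CLDN1, which can bind MMP14 and MMP2, was at 194 and 187 CPM in COL8A1 and 157 and 164 CPM in NC libraries (log2 fold change 0.25, SE 0.066, edgeR adjusted p = 0.663). Galectin 3 (LGALS3), a substrate of MMP2 and MMP9, was at 190 and 177 CPM in COL8A1 and 139.9 and 153 CPM in NC libraries (0.33, SE 0.081, edgeR adjusted p = 0.653). The integrin chain ITGB3, whose complex with the alpha V chain can hold MMP2, was at 3.05 and 3.39 CPM in COL8A1 and 1.57 and 1.57 CPM in NC libraries (1.03, SE 0.257, edgeR adjusted p = 0.653). ITGAV, which encodes that alpha V chain, was at 297 and 575 CPM in COL8A1 and 580 and 571 CPM in NC libraries, so that COL8A1 replicate 1 alone was low (log2 fold change −0.40, edgeR adjusted p = 0.864). CAV1, the caveolin of membrane pits through which MMP14 is taken up, was lower at 928 and 906 CPM in COL8A1, against 1089 and 1011 CPM in NC libraries (−0.19, SE 0.058, edgeR adjusted p = 0.742). ITGAV and CAV1 were added after their values were seen.

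**Figure D4:**
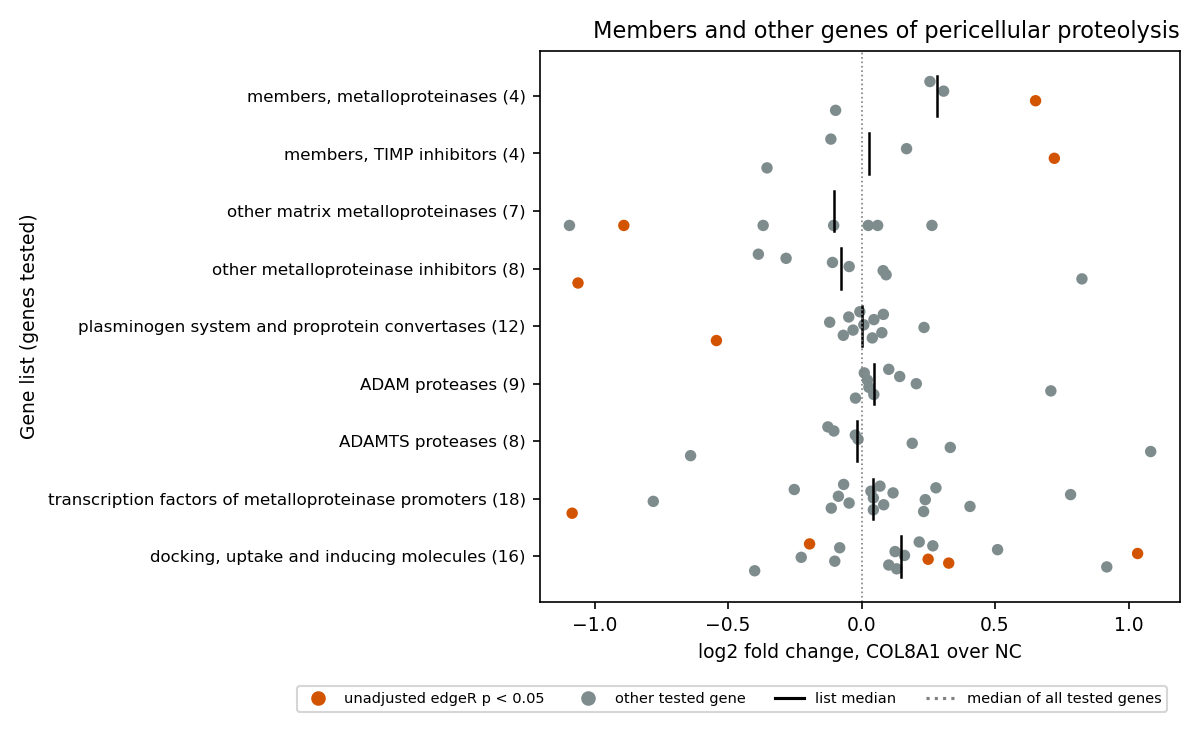
Log2 fold changes of COL8A1 over NC cells for the tested genes of the members and of 7 further lists, 1 point a gene (2 libraries a group), with list medians as black bars and the median of all tested genes as a dotted line. MMP2 and TIMP2 are the orange points of the top lines, and 3 higher and 5 lower orange points, at an unadjusted edgeR p under 0.05, lie in the other lists.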

How the data were processed

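The authors deposited a table of whole-number read counts, unnormalized, with a column for each library. Per the submitters' processing notes, the tools were HISAT2 2.2.1, Trim Galore 0.6.9 and featureCounts, which they list as 0.3, with hg38 as the build. The strand setting, annotation release and parameters were not given in the sources used here. A single line that names a protein domain and no gene was left out.

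Genes were kept by filterByExpr and tested with edgeR 4.0.16 in R 4.3.3 (TMM, quasi-likelihood F-test, group as the only term, 2 residual and 2.64 prior degrees of freedom), with Benjamini-Hochberg adjustment over all 17030 genes tested and a threshold of 0.05. SE is the absolute log2 fold change over the square root of F, and 95% intervals use the same degrees of freedom. RPKM use union exon lengths of GENCODE release 29, whose models may differ from those counted. The members and lists were chosen with earlier results of these data known. Named were the members, a set of pathway genes, host genes of the TIMP loci, per list the 3 genes of lowest p, and the 3 most like TIMP2. A gene of the pathway set is not reported here. On simulated counts edgeR recovered 45% of 100 genes changed 2-fold and 96% of 100 changed 4-fold, with 30 false calls among 16533 genes. DESeq2 recovered 76% and 98%, with 74 false calls. The simulated counts followed edgeR's own count model and estimates of spread, and the changed genes were taken above a minimum level. These rates may therefore not hold in the real libraries, where COL8A1, at a log2 fold change of 5.45, missed the edgeR threshold. Alternatives were other scaling, no filter, DESeq2 1.42.0, limma-voom (limma 3.58.1), a replicate block, summed overlapping genes and leaving out each library. Intervals and floors cover counting error or replicate spread only; PCR copies count as reads.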

Additional observations from a re-analysis of the deposited data

How the results depend on the processing

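MMP2 and TIMP2 stayed higher in COL8A1 cells under all 11 alternatives run, with log2 fold changes of 0.45 to 0.82 and 0.58 to 0.84; unadjusted edgeR p-values ran from 0.000379 to 0.0270 and 0.00198 to 0.0103 with 1 library left out. They passed in DESeq2 alone (adjusted p = 0.0138 and 0.000501; over all alternatives 0.0138 to 0.817 and 0.000501 to 0.590), so 2 members passed there and 0 in the other alternatives. TIMP1, TIMP4, MMP14 and MMP15 kept their direction in all 11 alternatives; MMP1 turned to 0.014 without COL8A1 replicate 1 (−0.22 to 0.014 with 1 library left out) and TIMP3 to −0.0042 without COL8A1 replicate 2 (−0.0042 to 0.32). The protease to inhibitor difference of 0.05 (log2) became −0.29 without MMP2 and 0.52 without TIMP2, 0.18 on summed RPKM, and −0.07 to 0.17 with 1 library left out.

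Genes past the edgeR threshold numbered 0 higher and 2 lower, against 11 and 6 without a low-count filter and 103 and 77 in DESeq2; with 1 library left out they ran from 0 to 2 higher and 0 to 2 lower. Of the other lists, genes at an unadjusted p under 0.05 ran from 1 to 5 higher and 3 to 9 lower with 1 library left out. Limma-voom was fitted to all genes, but its counts for these lists were not tallied. The cause of these shifts was not tested. With 1 library left out, the lone library of a group is assumed to vary like the other group. With the replicate number as a block, 1 lower gene passed. Deviations of same-numbered libraries had a correlation of −0.0357 over genes. This value over all genes cannot tell whether same-numbered libraries shared a culture or a batch, which the labels do not give. MMP3 and MMP9 are limited by depth, at 0 to 11 counts.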
